A study of Mus musculus with 8 samples.

Results

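The histone genes of the mouse embryonic cortex were examined as 82 of the 23284 gene symbols counted in each library. They are all symbols that begin with Hist1h, Hist2h, Hist3h or Hist4h, and all that begin with H1, H2 or H3 followed by an a or f and at least 1 further letter or digit. The rule reads symbols only and uses no measured value. The 68 symbols of the first kind name the replication-dependent genes, with 6 for H1, 18 for H2A, 19 for H2B, 12 for H3 and 13 for H4. The other 14 name variant genes. The mouse annotation used here classes H1f0 and H2afy3 of the 14, and Hist2h3c2 and Hist3h2bb-ps of the 68, as pseudogenes. They were kept in the counts. Cenpa, which encodes the centromeric H3 variant, is not matched by the rule.

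Histones package DNA into nucleosomes, whose core is built from H2A, H2B, H3 and H4, while the linker histone H1 binds where DNA enters and leaves. Replication-dependent genes supply the bulk of new histones in S phase, and their mRNAs normally end in a conserved stem-loop rather than a poly(A) tail. Variant genes are mostly transcribed throughout the cell cycle into polyadenylated mRNAs, and their proteins replace the canonical histones in cells that no longer divide, such as neurons. The dorsal cortex at this stage holds dividing progenitors and the neurons born from them.

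RNA was taken from the dorsal cortex of C57BL/6 embryos at E15.5, in 4 libraries labelled WT and 4 labelled ErbB4 KO, whose genotype is given as ErbB4 -/-. ErbB4 is a receptor tyrosine kinase for neuregulins, and the study asked which cortical genes depend on it. Mice of the ErbB4 -/- line carry an ErbB4 transgene driven by a cardiac promoter (alpha-MHC), and embryos of either label came from separate homozygous breedings. Meninges and ganglionic eminences were dissected away, and libraries were made from polyA-selected RNA without keeping the strand, so the level of a replication-dependent gene is that of RNA that passed polyA selection and not of its total RNA. Values are CPM after TMM normalization, that is, counts relative to the effective total of their library. Nothing in the labels says that replicates came from separate litters, so p-values measure the spread between these libraries.

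The libraries held 28205703 to 48871480 counts. Erbb4 itself had 18.3 ± 6.81 CPM (SD, n = 4) in libraries labelled WT and 22.4 ± 1.92 (SD, n = 4) in those labelled ErbB4 KO, so it was not lower in the latter, and KO and WT stand for the labels throughout. Among the WT libraries Erbb4 had 8.99 CPM in replicate 1 and 19.17 to 25.3 CPM in the others. Its fitted log2 fold change of 0.28 was 0.06 without WT replicate 1. WT replicate 1 stood apart from the other 7 libraries. In it the deviation of a gene from its mean over the other 7 libraries correlated with transcript length at Spearman's rho = -0.579 across genes. Short transcripts were high in it. Taken the same way, rho was 0.0374 to 0.223 in the others, where the mean used for comparison includes WT replicate 1. Tested histone transcripts had a median length of 1434 nucleotides against 3170 over all tested genes. Xist was at 983 to 1686 CPM in WT replicates 1 to 3 and at 2.70 to 3.82 CPM in WT replicate 4 and the KO libraries. Results are therefore given with and without WT replicate 1, and the part of transcript length in them was not tested apart from the alternatives named. Only WT replicate 4 shares the low Xist of the KO libraries, so embryo sex and label can hardly be told apart. With Xist as a covariate, the fitted difference rests mainly on WT replicate 4 against the KO libraries. The part of embryo sex was therefore not tested.

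The gene ends are shown first, because polyA selection acts on them. In the mm9 genome with the GENCODE annotation, all 82 symbols were matched. The histone stem-loop consensus (16 letters, at most 1 mismatch, within 100 bases after an annotated stop codon, on the transcribed strand) was found in 63 of the 66 replication-dependent genes with an annotated stop codon, and in 58 of them without a mismatch. Of the variant genes 1 of 12 held it. Over all 21930 protein-coding genes with a stop codon it was found in 67 (0.306%), 64 of them the histone genes counted here. Below are the stem-loops of the most read H2A, H2B, H1 and H4 genes, of an H3 gene and an H4 gene of low level, and of the variant H2afx, 5′ to 3′ in the sense of the mRNA, with the 16 matched bases in capitals.
Hist3h2a, chr11:58768669-58768694, plus strand: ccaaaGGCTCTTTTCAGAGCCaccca
Hist3h2ba, chr11:58762846-58762871, plus strand: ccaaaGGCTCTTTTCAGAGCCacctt
Hist1h1c, chr13:23831376-23831401, plus strand: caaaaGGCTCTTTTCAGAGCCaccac
Hist1h3c, chr13:23836911-23836936, minus strand: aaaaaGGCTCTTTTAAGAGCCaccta
Hist1h4i, chr13:22132830-22132855, minus strand: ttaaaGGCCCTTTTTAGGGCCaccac
Hist1h4d, chr13:23673814-23673839, plus strand: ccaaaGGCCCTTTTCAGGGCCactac
H2afx, chr9:44143318-44143343, plus strand: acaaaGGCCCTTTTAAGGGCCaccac

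The stem separated the H4 genes from the other classes. The 16 bases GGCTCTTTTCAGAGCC occurred in 39 replication-dependent genes of the H1, H2A, H2B and H3 classes, and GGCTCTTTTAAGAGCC in a further 9 of the same classes. H4 genes carried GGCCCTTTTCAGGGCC (8 genes), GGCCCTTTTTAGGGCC (Hist1h4i and Hist2h4) or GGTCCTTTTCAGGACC (Hist1h4b and Hist1h4j), and 3 further forms occurred in 1 gene each. H2afx, whose protein is phosphorylated around DNA breaks, had a stem of the H4 kind. No match was found for Hist1h3g, Hist2h2bb and Hist2h2be, and Hist2h3c2 and Hist3h2bb-ps had no annotated stop codon to search from.

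The replication-dependent genes with most reads had a second feature in common. A poly(A) signal (AATAAA or ATTAAA) lay in the last 40 bases of an annotated transcript in 17 of the 68, and 16 of these 17 also had the stem-loop upstream of it. In these 16 the annotated gene ran on past the stem-loop for 46 to 7826 bases of the genome, introns included (median 1002.5). Among them were 1487 in Hist3h2a, 839 in Hist1h1c and 150 in Hist1h4i. The 7826 bases are those of Hist1h2bc, whose longest annotated transcript has 736 nucleotides. In the 47 with a stem-loop and no such signal the annotated gene ran on for 0 to 3050 bases (median 8), among them 74 in Hist1h3c and 25 in Hist1h4d. The ranges overlapped, with 3050 in Hist1h1d and 2010 in Hist1h2ac against 46 in Hist1h4h, which has the signal. All 7 replication-dependent genes with a mean of at least 1 CPM were among the 17. Per kilobase of annotated exon, 6 of the 17 reached at least 1 CPM per kilobase, against 1 of the 51 without the signal. The summed mean level was 219.9 CPM for the 17 and 8.41 CPM for the 51. This grouping was made after the levels were known and is a description without a test. The search of annotated ends is also incomplete as a sign of polyadenylation. The variant genes H3f3b and H1f0 had no such signal there and were read at 706.8 and 553.1 CPM.

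**Figure D1:**
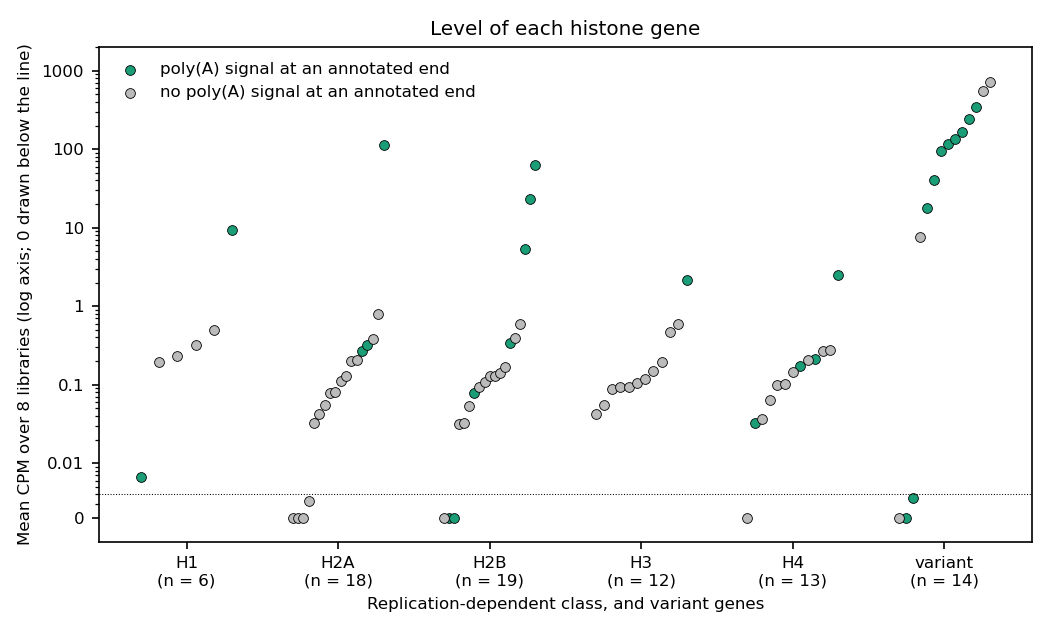
Mean CPM over the 8 libraries of each histone gene on a log axis, by replication-dependent class and for variant genes, with genes at or near 0 drawn below the dotted line. Green points have a poly(A) signal in the last 40 bases of an annotated transcript and grey points do not. All replication-dependent genes with 1 CPM or more are green, and 11 of the 14 variant genes lie at 7.71 CPM or above.

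The genes also differed in how much of their sequence is unique. Reads were 50 nucleotides long, and the median share of 50-base windows that occur once in the genome was 52.6% over the replication-dependent genes and 95.6% over the variant genes. In 12 replication-dependent genes it was under 20%. The 6 genes with no such window were Hist1h2ao, Hist1h2ap, Hist1h2bq, Hist1h2br, Hist2h2aa1 and Hist2h2aa2, of which all but Hist2h2aa1 had 0 counts in every library. Hist2h2aa1 had 15 counts and overlaps exons of Hist2h3c1. The other 4 genes never counted were Hist1h4m (10.2% unique), Hist1h2ba, H1fnt and H1foo. The last 3, of which H1foo encodes the oocyte linker histone and H1fnt and Hist1h2ba testis histones, had 61.8% to 100% unique windows. A count of 0 allows up to 0.0609 CPM in the deepest library and 0.107 CPM in the shallowest, for counting error only. How the authors' counting treated reads with several positions is not given in the sources used here, so levels of near-identical genes are uncertain. Among the 37 genes with at least 50% unique windows, the 13 with a poly(A) signal summed to 212.4 CPM and the 24 without to 5.57 CPM.

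Of all counts assigned to histone genes, variant genes took 91.4% and replication-dependent genes 8.61% in CPM. H3f3b and H3f3a, which both encode the replacement H3 of transcribed chromatin, had 706.8 and 115.5 CPM, or 237.5 and 32.95 CPM per kilobase. H1f0, the linker histone of cells leaving the cell cycle, had 553.1 CPM. Its annotated model here is 534 bases long and holds no stop codon, so its 1036 CPM per kilobase is overstated to an unknown extent. The macroH2A genes H2afy and H2afy2 had 51.0 and 109.6 CPM per kilobase, H2afv and H2afx 100.6 and 99.98, and H1fx, a further linker histone, 88.05. The annotated exons of H2afy cover 6809 nucleotides against 4018 in its longest transcript, so its value per kilobase depends on the length used. H2afj stood at 22.5 CPM per kilobase and H2afz, which encodes the H2A variant found at promoters, at 9.98. The share of unique 50-base windows in H2afz was 59.4%, the lowest among the variant genes. Its annotated exons cover 1776 nucleotides against 1069 in its longest transcript. Its level per kilobase may thus be understated. H2afy3, annotated as a pseudogene, was lowest among the 11 tested variant genes, at 4.14 CPM per kilobase. The remaining variants were H1fnt and H1foo at 0 and H2afb1 with 1 count in all.

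The replication-dependent reads came from few genes. The small Hist3 cluster on chromosome 11 (58762413 to 58770176, 3 genes) gave 77.3% of their CPM. The 54 Hist1 genes, which span 2.22 Mb of chromosome 13 (21807632 to 24026720), gave 10.7%, and the 10 Hist2 genes of chromosome 3 (96023839 to 96082924) gave 11.9%. Hist4h4 of chromosome 6 gave 0.12%. Hist3h2a carried 97.7% of all H2A CPM, Hist1h1c 88.4% of H1, Hist3h2ba 66.8% of H2B, Hist1h4i 60.8% of H4 and Hist2h3c1 51.6% of H3. The 5 genes with most reads held 93.7% of the replication-dependent CPM, and the other 63 summed to 14.5 CPM. Per kilobase, Hist3h2ba was highest at 100.5, followed by Hist3h2a at 57.0, Hist2h2be at 8.89, Hist1h2bc at 7.27, Hist1h1c at 6.04 and Hist1h4i at 4.64. Hist3h2a overlaps exons of Trim17, and without strand the reads of the shared bases cannot be told apart.

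Short motifs known from histone promoters were searched around the annotated starts. In the 300 bases from 250 before to 50 after the annotated start, on either strand, CCAAT occurred in 58 of 68 replication-dependent genes (85.3%), TATAAA in 38 (55.9%) and the octamer ATTTGCAT in 16 (23.5%). Over all 22380 promoters of protein-coding genes the shares were 37.9%, 13.4% and 1.7%. The octamer was found in 7 of 18 H2A and 9 of 19 H2B genes and in none of the others, and CCAAT in 4 of 13 H4 genes. Of the 14 variant genes 6 held CCAAT, 2 held TATAAA and 0 the octamer. The promoter of Hist3h2a, the replication-dependent gene with most reads, is shown because it holds octamer and CCAAT together (chr11:58767937-58768236, mm9, plus strand, 5′ to 3′). The capitals mark, in order, the octamer on the opposite strand, CCAAT on the opposite strand and CCAAT.
Hist3h2a promoter: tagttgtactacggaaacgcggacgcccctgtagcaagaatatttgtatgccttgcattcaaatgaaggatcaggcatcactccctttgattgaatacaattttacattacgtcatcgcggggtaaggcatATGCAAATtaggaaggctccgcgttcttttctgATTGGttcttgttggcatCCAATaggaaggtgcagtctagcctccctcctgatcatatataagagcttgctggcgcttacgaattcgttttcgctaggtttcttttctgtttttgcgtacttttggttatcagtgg

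The comparison of KO with WT asked whether histone mRNA differed with the ErbB4 label. No histone gene passed the threshold, and nearly all were fitted slightly lower in the KO libraries. Of the 82 genes, 30 passed the filter on low counts (19 replication-dependent and 11 variant), and 52, none with more than 74 counts in all, did not. An adjusted p under 0.05 in edgeR's quasi-likelihood test was reached by 0 of the 30, where 0.0272% of all 14696 tested genes reached it, and the smallest adjusted p was 0.81. DESeq2 and limma-voom also called 0. At an unadjusted p under 0.05, edgeR had 4 histone genes, all lower in KO (Hist3h2a, Hist2h2be, Hist1h3c and H2afz), against 2.52% of all tested genes lower and 5.53% in either direction, and limma-voom had 4 of 30 (2.45% of all genes lower). DESeq2, run without that filter, had 5 of 73 histone genes (2.21% of all genes lower). The edgeR count was 0 without WT replicate 1 or without KO replicate 3, where 2.71% and 1.52% of all genes tested in those fits were lower at that p. It was 2 without KO replicate 2 (1.17% of all genes), and 7 without WT replicate 2 (4.55%), WT replicate 3 (3.19%) or KO replicate 4 (3.58%). In bulk tissue, fewer cells of a type and less RNA per cell cannot be told apart.

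The fitted log2 fold change of KO over WT was below 0 in 28 of the 30 genes (93.3%), where it was below 0 in 50.8% of all tested genes. Its median was -0.23 over the 19 replication-dependent genes, -0.15 over the 11 variant genes and -0.0022 over all tested genes. Without WT replicate 1, 31 genes were tested, 25 of them were below 0 (80.6%), and the medians were -0.14 over the 20 replication-dependent genes then tested (-0.17 over the same 19) and -0.06. With each library's trend with transcript length removed, 24 of 30 were below 0 and the medians were -0.17 and -0.08. The genes were measured in the same 8 libraries and are not independent replicates of this direction.

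**Figure D2:**
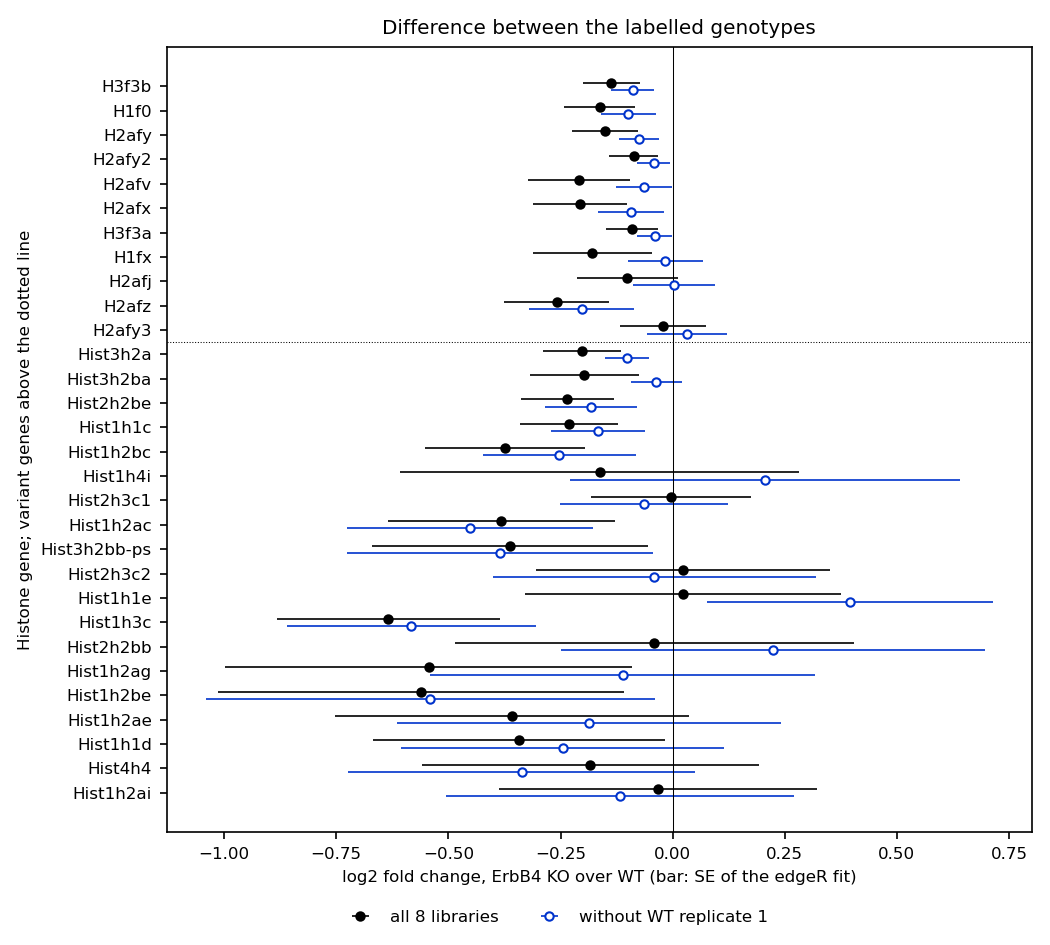
Fitted log2 fold change of ErbB4 KO over WT (edgeR) for the 30 tested histone genes, with variant genes above the dotted line and bars of 1 SE. Black points use all 8 libraries, and blue open points leave out WT replicate 1, which moved most genes towards 0. No gene had an adjusted p under 0.05.

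Among the replication-dependent H2A genes, Hist3h2a was read at 146, 116, 113 and 111 CPM in WT replicates 1 to 4 and at 104, 98.2, 109 and 112 CPM in KO replicates 1 to 4. WT replicate 1 was far above the rest, and KO replicate 4 lay within the range of the other WT libraries. The means were 121.4 ± 16.5 and 105.5 ± 5.91 (SD, n = 4 each), a log2 fold change of -0.20 (SE 0.087, edgeR p = 0.0388, adjusted p = 0.81, exact two-sided permutation p = 0.0571). Without WT replicate 1 it was -0.10. Hist1h2ac and Hist1h2ag, both canonical H2A genes of the large cluster, had 0.787 and 0.384 CPM and log2 fold changes of -0.38 (SE 0.253) and -0.54 (SE 0.453). Their libraries overlapped, with 5 to 48 counts in each. Without WT replicate 1 the values were -0.45 and -0.11. The value of Hist1h2ag was -0.33 without KO replicate 2 and -0.83 without KO replicate 1, and that of Hist1h2ac was -0.16 without WT replicate 3 and 0.10 with Xist as a covariate.

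Of the H2B genes, Hist2h2be, with a poly(A) signal at its annotated end and no stem-loop found, stood at 27.9, 24.2, 28.1 and 20.6 CPM in WT and at 23.8, 20.4, 20.5 and 20.8 CPM in KO. WT replicate 4 sat among the KO libraries. The log2 fold change was -0.23 (SE 0.105, edgeR p = 0.0453, adjusted p = 0.81, exact permutation p = 0.0857) and -0.18 without WT replicate 1. With Xist as a covariate, its sign turned to 0.05. Hist3h2ba had 66.6 ± 14.7 CPM in WT and 58.0 ± 1.41 in KO (SD, n = 4 each), and its log2 fold change of -0.20 (SE 0.121) became -0.04 without WT replicate 1. Hist1h2bc had 6.03 ± 1.29 and 4.66 ± 0.882 CPM (SD, n = 4 each), with a fitted log2 difference of -0.37 (SE 0.178) that was 0.04 with Xist as a covariate, and its libraries overlapped.

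The linker histone Hist1h1c was read at 11.6, 9.62, 9.72 and 9.77 CPM in WT and at 7.63, 9.505, 7.96 and 9.59 CPM in KO. All KO libraries lay below all WT libraries, KO replicates 2 and 4 by a narrow margin. The log2 fold change was -0.23 (SE 0.110, edgeR p = 0.0586, adjusted p = 0.81), and the exact permutation p of 0.0286 is the smallest that 4 libraries against 4 can give. Without WT replicate 1 it was -0.17. Hist1h1d and Hist1h1e, further linker histones of the same cluster, had 0.316 and 0.493 CPM with log2 fold changes of -0.34 and 0.02. The value of Hist1h1e was the highest of all tested histone genes, and it was 0.39 without WT replicate 1, which had 24 of its counts against 10 to 15 in the other WT libraries.

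Hist1h3c, a canonical H3 gene, had the lowest log2 fold change of the set. Its CPM was 0.64, 0.58, 0.57 and 0.51 in WT and 0.39, 0.37, 0.31 and 0.41 in KO, from 12 to 22 counts a library, and the labels did not overlap. The log2 fold change was -0.63 (SE 0.248, edgeR p = 0.0258, adjusted p = 0.81, exact permutation p = 0.0286) and -0.58 without WT replicate 1 (edgeR p = 0.0597). Of the other 11 H3 symbols 2 were tested. Hist2h3c1 had a log2 fold change of -0.0046 (SE 0.178) at 2.14 CPM, with its sign depending on the setting. Hist2h3c2, annotated as a pseudogene, had one of 0.02 at 0.596 CPM.

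The H4 gene Hist1h4i varied widely within both labels. It had 4.53, 0.93, 2.53 and 2.59 CPM in WT and 2.37, 0.83, 3.79 and 2.35 CPM in KO. Replicates 2 of both labels were the lowest, from 29 counts each, and the coefficient of variation over the 8 libraries was 50.5%. Its log2 fold change was -0.16 (SE 0.444), 0.21 without WT replicate 1, 0.11 without KO replicate 2, -0.44 without WT replicate 2 and -0.49 without KO replicate 3. Hist4h4 had 0.274 CPM and a log2 fold change of -0.18. That value was -0.34 without WT replicate 1, -0.0011 without KO replicate 2 and -0.38 with Xist as a covariate. Hist1h4d, at 0.265 CPM, did not pass the filter.

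Of the variant genes, H2afz had 21.5, 16.2, 17.4 and 22.2 CPM in WT and 17.8, 17.2, 14.1 and 15.4 CPM in KO. WT replicates 1 and 4 were high, and the remaining libraries overlapped. The log2 fold change was -0.26 (SE 0.117, edgeR p = 0.0487, adjusted p = 0.81, exact permutation p = 0.143) and -0.20 without WT replicate 1. H2afv, which encodes a close relative of the H2afz protein, had a log2 fold change of -0.21 (SE 0.114) that became -0.06 without that library, and H2afx one of -0.21 (SE 0.105) that became -0.09.

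H3f3a was read at 131, 116, 114 and 114 CPM in WT and at 113, 108, 112 and 114 CPM in KO. All KO libraries lay below all WT libraries, with KO replicate 4 below WT replicate 3 by less than the rounding shown. The log2 fold change was -0.09 (SE 0.058, edgeR p = 0.145, exact permutation p = 0.0286) and -0.04 without WT replicate 1. H3f3b, the paralogue with the same protein product, had 740.4 ± 59.7 CPM in WT and 673.2 ± 23.0 in KO (SD, n = 4 each), a log2 fold change of -0.14 (SE 0.063, edgeR p = 0.052, exact permutation p = 0.0571) and -0.09 without that library. H1f0 had 584.3 ± 60.9 and 521.9 ± 36.7 CPM (SD, n = 4 each), with a log2 fold change of -0.16 (SE 0.078), and KO replicate 4, at 574 CPM, lay above WT replicates 2 and 4. That value was -0.10 without WT replicate 1 and -0.05 with the length trend removed.

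None of the remaining variant genes reached an unadjusted p under 0.05. The macroH2A genes H2afy and H2afy2 had log2 fold changes of -0.15 (SE 0.073) and -0.09 (SE 0.055), which became -0.08 and -0.04 without WT replicate 1. H1fx had -0.18 (SE 0.133), -0.02 without WT replicate 1 and -0.30 without WT replicate 3. H2afj had -0.10 (SE 0.113), 0.0023 without WT replicate 1 and -0.21 without WT replicate 3. H2afy3 had -0.02 (SE 0.096) and 0.03 without WT replicate 1. Libraries of the labels did not overlap in 3 of the 30 genes (Hist1h1c, Hist1h3c and H3f3a, all lower in KO), where this held in 1.48% of all tested genes and non-overlap in either direction in 3.34%. The count was again 3 without WT replicate 1, when 2.83% of all tested genes were separated in that direction. It was 6 without WT replicate 3 (3.81% of all genes) and 8 without WT replicate 4 (2.57%) or KO replicate 4 (4.57%). It was 2 of 30 with RLE factors (1.42% of all genes), upper-quartile factors (1.15%) or the length trend removed (1.48%), and 2 of the 18 histone genes with a mean of at least 50 counts (1.51%).

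**Figure D3:**
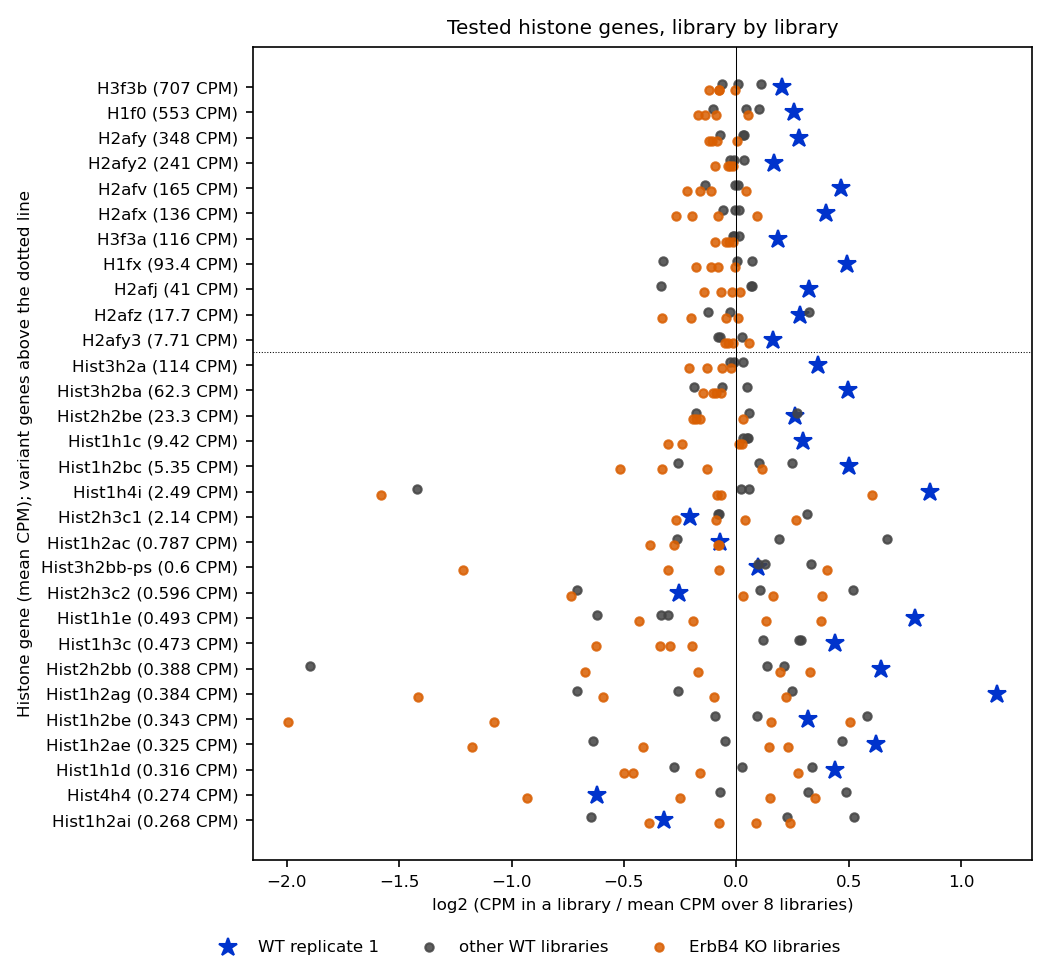
CPM of each tested histone gene in each library, as log2 of its ratio to the gene's mean over the 8 libraries, with the mean CPM in brackets and variant genes above the dotted line. Blue stars are WT replicate 1, dark points the other WT libraries and orange points the ErbB4 KO libraries. WT replicate 1 was the highest of the 4 WT libraries in 10 of 11 variant and 11 of 19 replication-dependent genes, and the spread between libraries widens below 1 CPM.

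Libraries within a label thus differed as well. WT replicate 1 was the highest of the 4 WT libraries in 11 of 19 replication-dependent and 10 of 11 variant genes. KO replicate 4 was the highest of the 4 KO libraries in 10 of 19 and 8 of 11. WT replicate 4, the only WT library with Xist as low as in KO, had 225.5 CPM summed over the replication-dependent genes and 2421 over the variant genes. The KO libraries had 198.3 to 222.7 and 2233 to 2447 CPM, so it stood just above their range in the first sum and within it in the second.

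Summed over all genes of a class, including those under the filter, each class had a lower mean in KO, by a log2 ratio of -0.22 for H1, -0.21 for H2A, -0.22 for H2B, -0.22 for H3, -0.28 for H4 and -0.15 for the variant genes. Without WT replicate 1 the ratios were -0.13, -0.11, -0.09, -0.21, -0.05 and -0.08. With other single libraries left out, the H3 ratio was from -0.33 without KO replicate 4 to -0.12 without WT replicate 2. The H4 ratio was -0.42 without WT replicate 2, -0.09 without KO replicate 2 and -0.51 without KO replicate 3. Without the gene with most reads, the H1 ratio was nearer to no difference and the H2A, H2B, H3 and H4 ratios were further from it, with values given under the processing. No test was made on these sums. The H2B sum was 126.3, 91.8, 91.3 and 92.0 CPM in WT and 87.7, 81.9, 85.6 and 89.0 CPM in KO, without overlap. The H2A sum was 149.6, 119, 115.4 and 113.8 CPM in WT and 106, 100.3, 111 and 114.2 CPM in KO, where KO replicate 4 passed WT replicate 4. The H1, H3 and H4 sums overlapped between labels, at 10.6 to 13.4, 3.57 to 5.33 and 3.08 to 6.45 CPM in WT against 8.54 to 10.96, 3.30 to 4.67 and 2.15 to 5.35 in KO. All replication-dependent genes together had 245.3 ± 36.8 CPM in WT and 211.3 ± 10.2 in KO (SD, n = 4 each), and 226.9 CPM in WT without replicate 1.

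**Figure D4:**
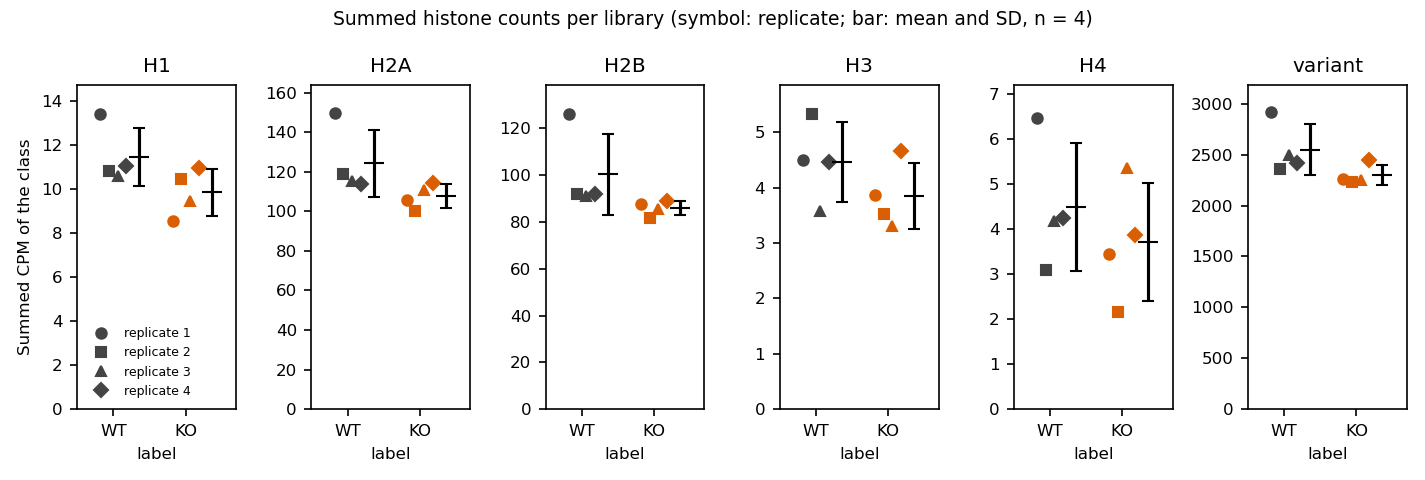
Summed CPM of each replication-dependent class and of the variant genes in each library, with axes that start at 0, symbols for the replicate number and bars for the mean and SD of 4 libraries. WT replicate 1 is the highest library for H1, H2A, H2B, H4 and the variant genes, and H2B is the only class shown in which WT and KO libraries do not overlap.

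The genes that make, process and deposit histones were described from lists written by hand. Of 25 genes of histone mRNA transcription and 3′ end processing, 0 passed the adjusted threshold, 16 were fitted below 0, and the median log2 fold change was -0.04. Npat, the coactivator of replication-dependent histone genes, had 0.03 (SE 0.092), and Slbp, which binds the stem-loop, -0.14 (SE 0.073). The smallest p-values were those of Srrt, a cap-binding partner in RNA processing (-0.17, SE 0.053), and of Ccne1, the cyclin E that drives entry into S phase (-0.26, SE 0.113). Both were under 0.05 unadjusted, with an adjusted p of 0.81 from edgeR, where 2.52% of all tested genes were lower in KO at that unadjusted p. Without WT replicate 1, 1 gene of this list was lower at that p (2.71% of all tested genes). Of 30 chaperone and deposition genes, a list that also holds the histone gene Cenpa, 0 passed, 18 were below 0, and the median was -0.03. None of them had an unadjusted p under 0.05, where 5.53% of all tested genes did. Ssrp1, a subunit of the FACT chaperone, and Nap1l1, a chaperone of H2A and H2B, had the smallest p-values (-0.12, SE 0.062, and -0.13, SE 0.070). Without WT replicate 1, 22 of the list were below 0, the median was -0.05, and 1 gene was higher in KO at that p (5.93% of all tested genes in either direction). With the length trend removed, 23 were below 0, the median was -0.06, and 1 gene was lower (7.07%). With Xist as a covariate the median was -0.01.

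Of 30 S phase genes, all 30 were fitted below 0 in KO and 0 passed the adjusted threshold, with a median log2 fold change of -0.17, of -0.14 without WT replicate 1, and of -0.11 with Xist as a covariate. An unadjusted p under 0.05 was reached by 3 with edgeR, all lower in KO, against 2.52% of all tested genes lower. That count was 6 with limma-voom (2.45% of all genes), 5 with DESeq2 (2.21%) and 7 with the replicate number as a block (3.01%). It was 1 without KO replicate 2, 17 without WT replicate 2 and 18 without KO replicate 4, where 1.17%, 4.55% and 3.58% of all tested genes were lower at that p. It was 7 with the length trend removed (3.09%) and 0 with Xist as a covariate (0.776%). The 3 genes were Ung, a uracil-DNA glycosylase (-0.31, SE 0.089), Cdt1, which licenses replication origins (-0.25, SE 0.087), and Gins2, of the replicative helicase (-0.29, SE 0.107), each with an adjusted p of 0.81 from edgeR. The summed S phase list had 1679, 1406, 1708 and 1502 CPM in WT and 1344, 1319, 1370 and 1616 CPM in KO, where KO replicate 4 lay within the WT range.

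Markers of cell types moved with the same libraries in part. The 10 progenitor markers, among them Pax6, Sox2 and Mki67, summed to 2290 to 2850 CPM in WT, highest in replicate 1, and 2270 to 2550 CPM in KO, highest in replicate 4, with 9 of 10 fitted below 0 and a median of -0.16 for the log2 fold change. Of them 4 were lower in KO at an unadjusted p under 0.05 (3 without WT replicate 1), where 2.52% of all tested genes were. The 10 markers of postmitotic cortical neurons summed to 9700 to 10000 CPM in WT and 9900 to 10600 in KO, with 6 of 10 above 0 and a median of 0.02. Of them 1 was higher in KO at that p, where 5.53% of all tested genes passed in either direction. Without WT replicate 1, 8 of 10 were above 0, the median was 0.06 and 2 were higher at that p (5.93%). Red blood cell markers stood at 33.2 to 58.1 CPM in WT, again highest in replicate 1, and 23.2 to 36.6 in KO, with 3 of the 10 at 0 in every library. Of the 5 that were tested, 2 were lower at that p, with and without WT replicate 1. Their log2 fold changes ran from -1.72 to 0.21, with 2 of the 5 above 0 and a median of -0.15. Without WT replicate 1, 3 were above 0 and the median was 0.02. Microglia (52.6 to 62.4 against 52.9 to 63.5 CPM), endothelial and pericyte (167 to 184 against 169 to 181), meningeal (13.1 to 15.9 against 12.6 to 20.9) and ganglionic eminence and interneuron markers (469 to 638 against 461 to 651) overlapped between the labels. The part of cell composition in the histone values was not tested.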

How the data were processed

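The authors extracted RNA from dorsal cortex, prepared non-strand-specific polyA-selected libraries, sequenced 50-nucleotide single-end reads, aligned them to mm9 by HISAT and obtained counts for each gene symbol from HTSeq-count. The annotation and counting mode are not given in the sources used here. The deposited files hold raw counts, and they were used as deposited. The authors' DESeq2 table holds their own fold changes and p-values and was not used.

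The main test was the quasi-likelihood test of edgeR 4.0.16 (R 4.3.3) with TMM factors of 0.994 to 1.008 and the filterByExpr filter (at least 10 counts, total of at least 15), fitted on the whole table, with Benjamini-Hochberg adjustment over 14696 genes and a threshold of 0.05. Permutation tests were exact and two-sided over the 70 assignments of 8 libraries, on log2(CPM + 0.1). CPM per kilobase uses the union of annotated exons. Sequences, stop codons, exons and starts came from NCBIM37 (mm9) with GENCODE annotation, matched by symbol for 21897 of 23284 symbols. Motif shares and unique 50-base windows were counted with Python 3.11.15, and figures drawn with matplotlib 3.10.9. Counting error is part of the fitted model, and a count of 0 was read as at most 3 counts.

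Named were histone genes past the threshold or at an unadjusted p under 0.05, the 3 with the highest mean CPM in each replication-dependent class, every tested variant gene, the highest and the lowest log2 fold change, and the 2 smallest p-values of each list. Npat, Slbp, Gins2 and genes named for their ends or for a count of 0 were added after their values were seen. The members, the lists and this report's groupings were chosen with earlier results of these data known.

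The alternatives were DESeq2 1.42.0, limma-voom (limma 3.58.1), relative log expression (RLE) and upper-quartile factors, other filters and thresholds, a block for the replicate number, a covariate for Xist, removal of each library's trend with transcript length (lengths for 97.9% of tested genes), sums without the gene with most reads, and each library left out. On simulated data of 4 libraries against 4, edgeR recovered 193 of 200 changed genes with 7 false calls among 14709 genes tested. Recovery of differences as small as those fitted for the histone genes was not tested.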

Additional observations from a re-analysis of the deposited data

Results flagged for a closer look

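In 11 of the 66 groups of 4 libraries examined, 1 library lay far from the other 3. Chance gives this in about 1 in 20 groups, and the values below share libraries and genes. WT replicate 1 stood above the other WT libraries in 9 of the 11. Hist3h2a had 146 CPM there against 111 to 116, Hist1h1c 11.6 against 9.62 to 9.77, Hist1h1e 0.856 against 0.321 to 0.399, H2afx 179 against 130 to 137 and H3f3a 131 against 114 to 116. The sum of the H1 class was 13.4 CPM there against 10.6 to 11.1, that of H2A 150 against 114 to 119, that of H2B 126 against 91.3 to 92.0, and that of all replication-dependent genes 300 against 225 to 230. In the other groups, Hist2h2be had 23.8 CPM in KO replicate 1 against 20.4 to 20.8 in the other KO libraries, and the variant genes summed to 2450 CPM in KO replicate 4 against 2230 to 2260.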

How the results depend on the processing

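The count of histone genes called was 0 under each alternative run, and so were those of the 3 lists of partner genes. The medians of the replication-dependent and variant genes and the ratios of the 6 class sums were below 0 under each alternative run for them, and over the same 19 genes the median of the replication-dependent genes was from -0.29 without KO replicate 4 to -0.17 without WT replicate 1, that of the variant genes from -0.19 to -0.06. Of all tested genes, 4 passed the threshold with edgeR, 23 with DESeq2, 1 with RLE factors, with upper-quartile factors, with Xist as a covariate or at an adjusted p under 0.01, 2 with the length trend removed, and 1 to 13 with single libraries left out. The count of histone genes at an unadjusted p under 0.05 was 2 of 30 with upper-quartile factors (2.08% of all tested genes lower in KO at that p), 8 of 73 with no filter (2.26%), 2 of 18 with a mean of at least 50 counts (2.45%) and 1 of 30 with Xist as a covariate (0.776%), and 0 to 7 with single libraries left out, while 1.17% to 4.55% of all tested genes were lower in KO at that p in the latter fits. The number of histone genes whose libraries did not overlap was 3 to 8 with single libraries left out, while 2.06% to 4.8% of all tested genes were separated with KO lower, and 2 with RLE or upper-quartile factors, the length trend removed or a mean of at least 50 counts (18 histone genes tested), with 1.15% to 1.51% of all tested genes. Without the gene with most reads, the log2 ratio of the class sum was -0.14 for H1, -0.39 for H2A, -0.27 for H2B, -0.45 for H3, -0.43 for H4 and -0.15 for the variant genes. The cause of these shifts was not tested.

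With Xist as a covariate, the KO libraries are set mainly against WT replicate 4. The covariate turned the sign for Hist2h2be (0.046), Hist1h2ac (0.10), Hist1h2bc (0.0442), Hist2h3c1 (0.0981) and Hist2h3c2 (-0.50). Without a change of sign it moved H2afz to -0.48, Hist1h1d to -0.55, Hist4h4 to -0.38, Hist1h4i to -0.26, H2afj to -0.15, Hist1h1e to 0.21, Hist3h2a to -0.0985, H3f3a to -0.0461, H3f3b to -0.0128, H2afy2 to -0.0242 and H2afy3 to -0.0473. Hist2h3c1 was also above 0 with upper-quartile factors (0.0032) and the length trend removed (0.0066), as was H2afy3 with the latter (0.0274). The length trend also moved Hist3h2ba to -0.0755, H1fx to -0.081, H2afx to -0.13, H2afj to -0.0461, H2afy2 to -0.0509, Hist1h4i to -0.0126, Hist4h4 to -0.10 and Hist1h1e to 0.14. With single libraries left out, the log2 fold change ranged from -0.13 to 0.39 for Hist1h1e, -0.10 to 0.11 for Hist2h3c1, -0.16 to 0.27 for Hist2h3c2, -0.49 to 0.21 for Hist1h4i, -0.21 to 0.0023 for H2afj and -0.0499 to 0.0317 for H2afy3. The 52 histone genes under the filter were too shallow for a comparison of single genes.

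Samples of both labels carry the replicate numbers 1 to 4, but their deviations correlated at 0.0837, 0.135, 0.0476 and 0.0236 for same-numbered pairs, so the numbers were not taken as pairs, and 2 of the 4 WT libraries matched their own number best. With the replicate number as a block, 1 of all tested genes and 0 histone genes passed, and Hist2h3c1 was at 0.0022.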
